A study of Mus musculus with 12 samples.

Results

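The genes described here responded in the same direction to 5-fluorouracil (5-FU) in wild-type mice and in mice labelled Trim47-/-. All 12 libraries of the study entered the comparison, 12 of 12, and it was made on RNA-seq counts of bone marrow cells labelled long-term haematopoietic stem cells (LT-HSCs). There were 4 groups of 3 libraries: untreated wild type, untreated Trim47-/-, wild type with 5-FU, and Trim47-/- with 5-FU. The labels of both treated groups give 10 days for the drug without saying whether it was dosed throughout or given once before. Trim47 belongs to the tripartite-motif family, whose members attach ubiquitin to other proteins, and Trim47-/- below stands for the libraries that carry that label. The part of Trim47 that was removed, the surface markers of the sort, the dose of the drug, the strain and the age of the mice are not stated in the labels, nor is it said that the 3 libraries of a group came from separate animals. A gene was counted as a common responder when it passed an adjusted p under 0.05 in edgeR's quasi-likelihood test for the 5-FU effect averaged over the genotypes and for the 5-FU effect within each genotype, with the same sign in all 3. Of 16319 genes tested, 3228 met this rule.

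5-FU is a pyrimidine analogue that blocks thymidylate synthase and is built into RNA and DNA, so it kills dividing cells and spares cells that are not dividing. In bone marrow it depletes cycling progenitors, after which surviving stem cells enter the cell cycle, refill the progenitor pool and return towards rest. LT-HSCs in the mouse are usually sorted as cells without lineage markers that carry Kit, Sca-1 (encoded by Ly6a) and CD150 (encoded by Slamf1) and lack CD48, CD34 and Flt3.

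Those markers were checked first, on the deposited FPKM, which is scaled to gene length and so can be set side by side between genes. In the order of the groups above, mean FPKM (n = 3 each) was 0.289, 0.442, 2.68, and 0.881 for Slamf1, against 112, 146, 92.5, and 71.5 for Flt3. Cd48 stood at 30.6, 28.7, 61.1, and 48.2 FPKM and Cd34 at 68.6, 76, 78, and 73.3 FPKM, while Kit stood at 35, 37.7, 37, and 23.1 FPKM and Ly6a at 13.6, 12.5, 21.3, and 25.1 FPKM. RNA of Flt3, Cd48 and Cd34, which the usual gate excludes, was thus above that of Slamf1, which it requires, in all 4 groups, and this goes against the label in the RNA of the sorted cells. They are therefore called the labelled LT-HSCs below. Trim47 RNA was present in every library, at 24.6, 23.8 and 24.7 CPM in wild type and 23.7, 18.9 and 16.6 CPM in libraries labelled Trim47-/- without the drug. After 5-FU Trim47 had 38.1, 33.3 and 34.7 CPM in wild type and 10.1, 12.2 and 11.6 CPM in libraries labelled Trim47-/-. Every library labelled Trim47-/- lay below every wild-type one, though in the untreated groups the nearest pair, 23.7 and 23.8 CPM, hardly differed. Since RNA of the gene remained in all of them and the removed part is not given, the genotype was not fully checked by these levels.

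Library totals were 14828152 to 14885673 counts in untreated wild type, 20661120 to 20703198 in untreated Trim47-/-, 15111811 to 15151589 in treated wild type and 13919649 to 13953510 in treated Trim47-/-. They thus lay close together within a group and did not overlap between groups. Libraries of a group varied more than counting noise alone gives: their median chi-square over genes was 1.03 to 1.10 per degree of freedom where counting noise gives 0.693, and 12.6% to 13.9% of genes lay beyond the limit that noise alone passes in 1% of genes. P-values rest on the spread of libraries within groups, estimated jointly over the 4 groups of 3 libraries. Where the libraries of a group are technical repeats, p-values say nothing of animals, so sizes of change are given with every test. Each treatment and genotype may also rest on 1 RNA source, and an effect of treatment then cannot be told apart from a difference between sources. Levels below are count rates (CPM, counts scaled to library size) after TMM adjustment, and changes are log2 fold changes of 5-FU against untreated. A log2 change given with its standard error (SE) and adjusted p is the average over the genotypes, and a pair of log2 changes gives wild type first and Trim47-/- second. Levels of the form 1.57–2.28 CPM give the lowest and highest of the 6 untreated or of the 6 treated libraries, in that order.

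Averaged over genotype, 5-FU changed 9258 genes (56.7% of those tested), 4484 upwards (27.5%) and 4774 downwards (29.3%), in edgeR's quasi-likelihood test at an adjusted p under 0.05. Within wild type 8260 genes changed (50.6%), 25.2% of all genes upwards and 25.4% downwards. Within Trim47-/- 9868 changed (60.5%), 29.6% upwards and 30.8% downwards. The common responders made up 19.8% of the genes tested, with 1573 higher after 5-FU (9.64%) and 1655 lower (10.1%). A further 2563 genes (15.7%) passed in both genotypes with opposite signs. These shares, 9.64% higher, 10.1% lower and 15.7% opposite, are those to set beside every list count below. Among the 5791 genes that passed in both genotypes, 55.7% went the same way. Of the 9258 genes called in the averaged effect, 34.9% were common responders, 1095 had opposite signs in the 2 genotypes, 4694 passed in only 1 genotype and 241 in neither. An averaged effect was therefore mostly not a shared one by this rule.

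Larger changes were shared more often. Of 678 genes that passed and changed at least 2-fold in both genotypes, 530 (78.2%) went the same way, 129 upwards (0.79% of genes tested) and 401 downwards (2.46%), and 148 (0.907%) went opposite ways. At 4-fold or more in each genotype there were 20 rising and 103 falling genes. Of the 1655 falling genes, 116 were immunoglobulin V segments, whose 167 tested members had median log2 changes of -1.99 and -2.11. Their number among the falls of at least 2-fold was not counted. The shared rises were smaller than the shared falls, with a median log2 change over rising genes of 0.38 averaged over the genotypes (0.33 in wild type, 0.40 in Trim47-/-) and over falling genes of -0.76 (-0.61 and -0.80). All 6 libraries after 5-FU stood above all 6 untreated ones for 1270 of the 1573 rising genes, and below them for 1448 of the 1655 falling genes, beside 1475 (9.04%) and 1668 (10.2%) of all genes tested. Across all genes tested the log2 changes of the 2 genotypes correlated weakly, with Pearson's r of 0.263 and Spearman's rho of 0.0994 over genes, which are not independent replicates, and 52.5% had the same sign. Sharing a direction did not mean sharing a size: the interaction, the change in Trim47-/- minus that in wild type, passed (8957 genes, 54.9% of those tested, 26.4% with the higher and 28.5% with the lower change in Trim47-/-) for 1549 common responders, 48.0% of them. Among the rising genes the response was larger in Trim47-/- for 446 and in wild type for 232, and among the falling genes for 580 and 291.

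**Figure D1:**
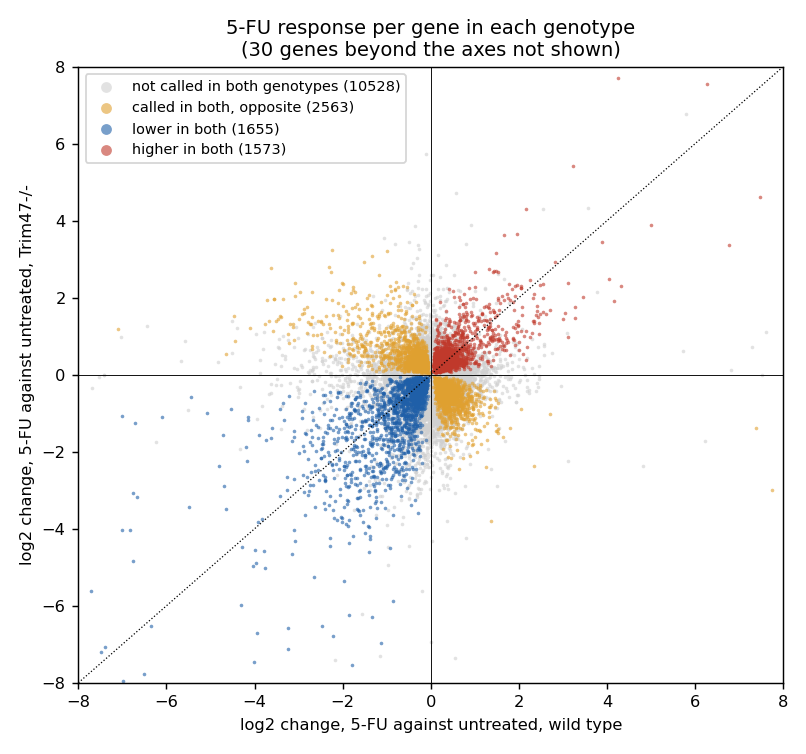
Log2 change after 5-FU in wild type (horizontal axis) against that in libraries labelled Trim47-/- (vertical axis), 1 point per gene tested, coloured by whether the gene was a common riser (1573), a common faller (1655), called in opposite directions (2563) or none of these, with 30 genes beyond the axis limits of 8 left out. The common fallers, 116 of them immunoglobulin V segments, reach farther from the centre than the common risers.

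The immediate early genes, which are switched on within minutes of a growth factor or stress signal and encode mostly transcription factors and phosphatases, formed the most complete block among the shared falls. Of 28 tested, 26 fell in both genotypes (92.9%, against 10.1% of all genes), none rose and 1, Socs3, had opposite signs. Their median log2 change was -1.09, beside -0.0028 over all genes tested. Their summed level was 52331–52810.0 CPM for untreated wild type, 52872–53184 CPM for untreated Trim47-/-, 30891–31139 CPM for treated wild type and 17119.7–17723 CPM for treated Trim47-/-, so the untreated groups lay within a narrow band, both treated groups lay far below it, and the treated Trim47-/- group was the lowest. In bulk RNA, fewer cells of a type and less RNA per cell cannot be told apart, and this holds for every level below. Of the targets of NF-kB, the transcription factor of inflammatory signalling, 15 of 31 fell in both genotypes, none rose, 7 had opposite signs, and the median was -0.90. Within the genotypes the median was -1.33 in wild type and -0.33 in Trim47-/-, where 8 of the targets were higher. Junb and Ier3 of this list are also in the immediate early list.

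The stretches below are the 180 bases before the RefSeq transcription start (GRCm38.p6) of 4 immediate early genes, shown because the core of the cyclic-AMP response element, TGACG, a site bound by CREB-family factors, is found in this class of promoters.
Fos, plus strand of chr12:85473710-85473889, Nr4a1, plus strand of chr15:101266666-101266845, Dusp5, plus strand of chr19:53528965-53529144, and Btg2, minus strand of chr1:134079156-134079335, are each written 5′ to 3′ along the gene, with the core on either strand in capitals (TGACG, or CGTCA for the other strand).
Fos: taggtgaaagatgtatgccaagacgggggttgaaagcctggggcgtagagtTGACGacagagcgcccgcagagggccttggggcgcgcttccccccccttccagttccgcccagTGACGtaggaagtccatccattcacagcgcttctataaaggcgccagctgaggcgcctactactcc
Nr4a1: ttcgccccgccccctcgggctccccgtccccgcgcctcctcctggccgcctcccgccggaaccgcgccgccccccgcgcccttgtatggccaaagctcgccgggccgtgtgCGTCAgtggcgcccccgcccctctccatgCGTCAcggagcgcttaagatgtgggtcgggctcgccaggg
Dusp5: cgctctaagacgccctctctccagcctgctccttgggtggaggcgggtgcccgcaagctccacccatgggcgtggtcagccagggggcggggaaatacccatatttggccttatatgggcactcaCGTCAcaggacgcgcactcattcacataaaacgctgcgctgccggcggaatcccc
Btg2: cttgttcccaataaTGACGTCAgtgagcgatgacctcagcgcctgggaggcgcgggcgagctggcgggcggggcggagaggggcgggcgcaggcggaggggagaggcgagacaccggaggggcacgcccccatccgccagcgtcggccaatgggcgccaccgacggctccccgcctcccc
In Fos the matches start 129 and 66 bases before the start, in Nr4a1 69 and 40, in Dusp5 55, and in Btg2 166 and 163, where both strands' matches overlap in the full palindrome TGACGTCA. Over windows of 300 bases (250 before and 50 after the start), 15 of the 26 immediate early genes with a RefSeq promoter (57.7%) held TGACG on either strand, against 23.05% of 27025 genes with 1 or more promoters in the table. The full palindrome stood in 3 of 26 (11.5%) against 2.03%. This motif was chosen after the gene values had been seen, and a match of letters is not a bound site.

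Fos, a partner of Jun in the AP-1 transcription factor, was named outside the rule, after its values were seen, as the best-known gene of the list. It stood at 4794, 4671 and 4628 CPM in wild type and 5098, 5045 and 5075 CPM in libraries labelled Trim47-/- without the drug. After 5-FU Fos had 2989, 3000.0 and 3006 CPM in wild type and 771, 773 and 759 CPM in libraries labelled Trim47-/-. Its log2 change was -1.69 (SE 0.00960, adjusted p = 6.36e-17), or -0.65 in wild type and -2.72 in Trim47-/-, the interaction being -2.08 (SE 0.0189, adjusted p = 1.90e-14). Nr4a1, an orphan nuclear receptor induced by many signals, stood at 5616, 5388 and 5413 CPM in wild type and 5812, 5892 and 5825 CPM in libraries labelled Trim47-/- without the drug. After 5-FU Nr4a1 had 2216, 2165 and 2217 CPM in wild type and 934, 1193 and 1196 CPM in libraries labelled Trim47-/-. Every treated library lay below every untreated one, and the log2 change was -1.86 (SE 0.0522, adjusted p = 9.61e-11), or -1.31 in wild type and -2.40 in Trim47-/-. Dusp5, a nuclear phosphatase that inactivates ERK, stood at 1080.2, 1038 and 1060.5 CPM in wild type and 904, 922 and 912 CPM in libraries labelled Trim47-/- without the drug. After 5-FU Dusp5 had 354, 359 and 355 CPM in wild type and 355, 364 and 364 CPM in libraries labelled Trim47-/-. It was nearly the same in both treated groups, with a log2 change of -1.46 (SE 0.0131, adjusted p = 3.99e-15), or -1.57 in wild type and -1.34 in Trim47-/-. Btg2, an antiproliferative cofactor, went from 1018–1069.8 to 207–492 CPM (lowest and highest of the 6 untreated and of the 6 treated libraries), at log2 -1.73 (SE 0.0159, adjusted p = 3.99e-15), or -1.16 in wild type and -2.30 in Trim47-/-. Dusp2, another MAP kinase phosphatase, went from 1314–1350.3 to 248–604 CPM, at log2 -1.76 (SE 0.0154, adjusted p = 3.98e-15), or -1.17 in wild type and -2.36 in Trim47-/-. For Fos, Nr4a1, Btg2 and Dusp2 the treated Trim47-/- libraries were the lowest group and the interaction passed, at log2 differences of -2.08, -1.08, -1.14 and -1.19. Egr1, a zinc-finger factor that restrains stem cell division, went from 2769–3417 to 696–1412 CPM, at log2 -1.64 (SE 0.00815, adjusted p = 2.97e-17), or -1.00 in wild type and -2.28 in Trim47-/-. Its relative Egr4 (ENSMUSG00000071341, chr6:85511121-85513589) had 46.2, 45.5 and 47.4 CPM in wild type and 29.1, 26.1 and 26.3 CPM in libraries labelled Trim47-/- without the drug. After 5-FU Egr4 had 5.68, 5.88 and 6.01 CPM in wild type and 6.79, 7.68 and 5.58 CPM in libraries labelled Trim47-/-, and its fall was the larger in wild type, at log2 -2.50 (SE 0.0654, adjusted p = 4.98e-11), or -2.98 in wild type and -2.02 in Trim47-/-. The other falling members included Jun (-0.52 and -1.71 in wild type and Trim47-/-), Junb (-0.70 and -1.24), Dusp1 (-0.86 and -2.61) and Zfp36 (-0.81 and -2.52), the last encoding an RNA-binding protein that destabilises cytokine mRNA.

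The genes that follow were named for the size of their shared fall or as members of the NF-kB list. Cd69, an early activation antigen that holds cells in tissue (ENSMUSG00000030156, chr6:129267325-129275436), stood at 1514, 1498 and 1497 CPM in wild type and 1239, 1259 and 1243 CPM in libraries labelled Trim47-/- without the drug. After 5-FU Cd69 had 408, 408 and 402 CPM in wild type and 169, 168 and 161 CPM in libraries labelled Trim47-/-. No treated library reached an untreated one, and the change was log2 -2.40 (SE 0.0134, adjusted p = 6.26e-17), or -1.89 in wild type and -2.91 in Trim47-/-. Cxcl2 (ENSMUSG00000058427, chr5:90903871-90905938), a neutrophil-attracting chemokine, stood at 449.8, 446 and 442 CPM in wild type and 235, 226.5 and 235 CPM in libraries labelled Trim47-/- without the drug. After 5-FU Cxcl2 had 87.2, 94.8 and 88.3 CPM in wild type and 54.1, 55.6 and 55 CPM in libraries labelled Trim47-/-. Cxcl2 changed by log2 -2.19 (SE 0.0228, adjusted p = 1.06e-14), or -2.31 in wild type and -2.08 in Trim47-/-. Il10, an anti-inflammatory cytokine (ENSMUSG00000016529, chr1:131019845-131024974), stood at 24.7, 25.4 and 25.6 CPM in wild type and 14, 13.1 and 14 CPM in libraries labelled Trim47-/- without the drug. After 5-FU Il10 had 4.99, 4.87 and 4.37 CPM in wild type and 2.31, 1.96 and 1.81 CPM in libraries labelled Trim47-/-. Its level was low in both treated groups, at log2 -2.58 (SE 0.0615, adjusted p = 2.36e-11), or -2.41 in wild type and -2.75 in Trim47-/-, and its interaction was -0.35 (SE 0.126, adjusted p = 0.114). Cd83, an activation marker of antigen-presenting cells, went from 87.5–212 to 7.91–31.3 CPM at log2 -3.14 (SE 0.0253, adjusted p = 1.98e-15), or -4.72 in wild type and -1.57 in Trim47-/-. The interaction was 3.14 (SE 0.0496, adjusted p = 2.30e-12). Nfkbia and Tnfaip3, which encode inhibitors in the NF-kB pathway itself, fell at log2 changes of -1.22 and -0.49 and of -1.49 and -2.10 in wild type and Trim47-/-. Nfkb1, Nfkb2, Rel and Relb, which encode subunits of the factor, had opposite signs in the 2 genotypes, Relb for example at -1.47 and 0.64. The list was thus split: 15 of its 31 members fell in both genotypes, 7 were lower in wild type and higher in Trim47-/-, these 4 subunits among them, and 9 were not called in both.

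**Figure D2:**
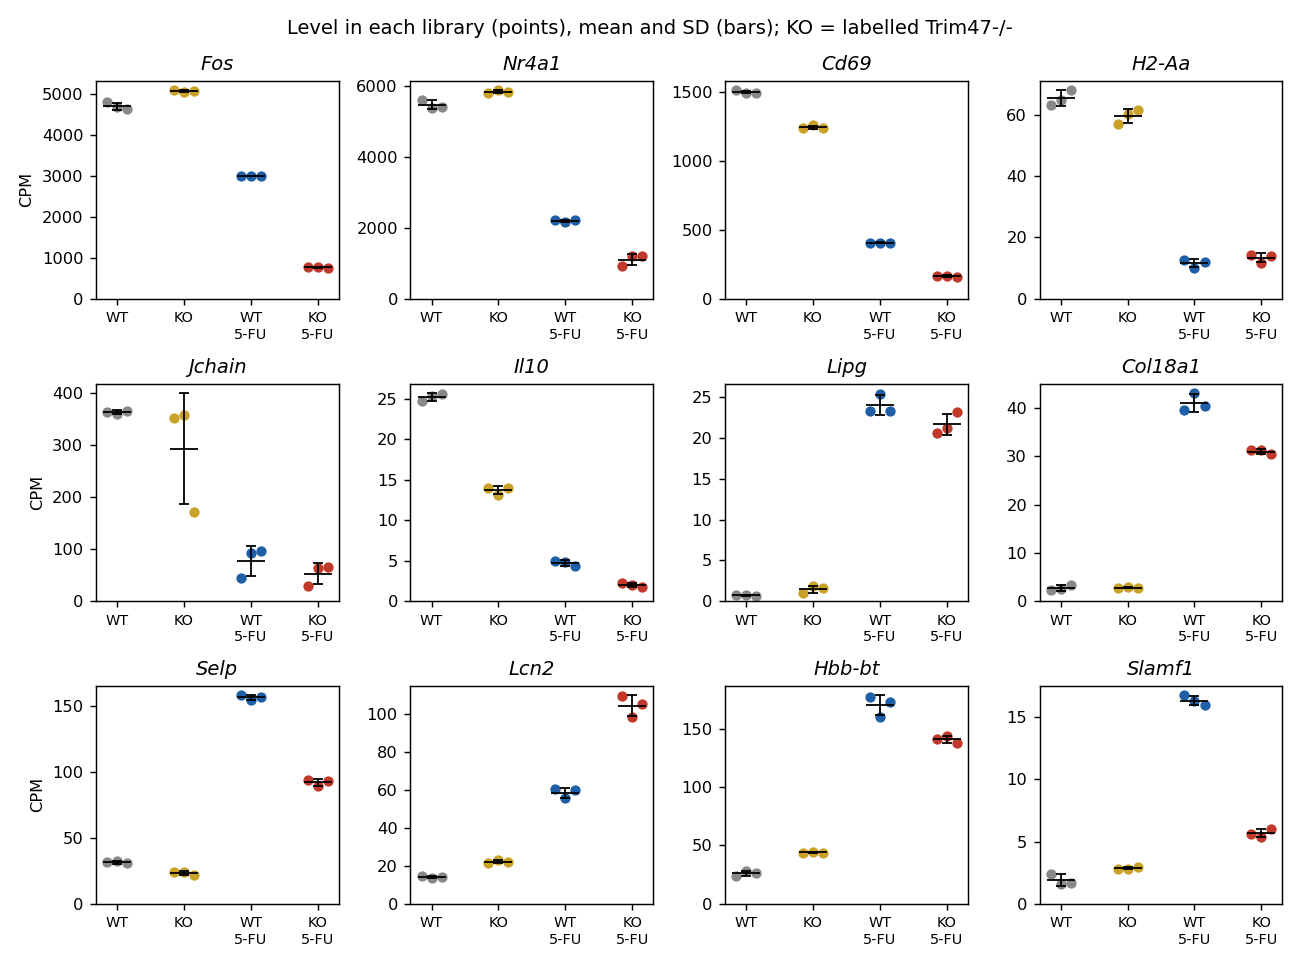
CPM of 12 genes in each of the 12 libraries (points), by group (untreated and 5-FU in wild type and in libraries labelled Trim47-/-), with the group mean and its SD as lines (WT, wild type, and KO, labelled Trim47-/-). Fos, Nr4a1, Cd69, H2-Aa, Jchain and Il10 lie lower in all 6 treated libraries than in all 6 untreated ones, and Lipg, Col18a1, Selp, Lcn2, Hbb-bt and Slamf1 lie higher.

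MHC class II genes, which encode the molecules that present peptides to CD4 T cells, also fell in both genotypes. Of 10 tested, 6 fell (60.0%), none rose and 1 had opposite signs, with a median log2 change of -0.76. The falling members were the classical chains H2-Aa, H2-Ab1 and H2-Eb1, the invariant chain Cd74, the peptide-loading chain H2-DMb1 and the transactivator Ciita, which controls the whole set. The promoters of H2-Aa (minus strand of chr17:34287824-34288003) and H2-Eb1 (plus strand of chr17:34305687-34305866) are shown because they carry the Y box CTGATTGG, in capitals, part of the module through which class II genes are switched on together.
H2-Aa: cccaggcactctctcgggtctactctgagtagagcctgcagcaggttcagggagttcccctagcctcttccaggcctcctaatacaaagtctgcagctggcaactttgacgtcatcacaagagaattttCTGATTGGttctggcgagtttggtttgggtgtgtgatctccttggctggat
H2-Eb1: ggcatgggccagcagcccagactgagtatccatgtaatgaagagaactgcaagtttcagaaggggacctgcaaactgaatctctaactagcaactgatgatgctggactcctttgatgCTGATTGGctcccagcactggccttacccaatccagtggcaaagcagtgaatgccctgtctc
The box starts 51 bases before the start in H2-Aa and 62 in H2-Eb1. Of 7 class II genes with a RefSeq promoter, 3 held the box on either strand (42.9%), H2-Oa being the third, against 4.70% of all 27025 genes. This motif, too, was chosen after the values were seen. H2-Aa (ENSMUSG00000036594, chr17:34282744-34287823) stood at 63.1, 65 and 68.1 CPM in wild type and 57, 60.2 and 61.5 CPM in libraries labelled Trim47-/- without the drug. After 5-FU H2-Aa had 12.6, 10.2 and 12.1 CPM in wild type and 14.4, 11.7 and 14.1 CPM in libraries labelled Trim47-/-. H2-Eb1 (ENSMUSG00000060586, chr17:34305867-34316674) stood at 33.3, 31.9 and 34.1 CPM in wild type and 29, 28.7 and 29.8 CPM in libraries labelled Trim47-/- without the drug. After 5-FU H2-Eb1 had 7.33, 4.81 and 5.57 CPM in wild type and 6.07, 6.16 and 7.25 CPM in libraries labelled Trim47-/-. The 2 chains moved almost alike, at log2 -2.32 (SE 0.0624, adjusted p = 6.37e-11), or -2.49 in wild type and -2.16 in Trim47-/- for H2-Aa and -2.33 (SE 0.0845, adjusted p = 9.41e-10) averaged over the genotypes for H2-Eb1. Cd74, which chaperones the 2 chains, went from 159.7–230.4 to 38.7–51.1 CPM at log2 -2.18 (SE 0.0801, adjusted p = 1.04e-09), or -2.34 in wild type and -2.01 in Trim47-/-. Ciita changed by -1.13 and -2.34 in wild type and Trim47-/-. H2-Oa, which carries the box, had opposite signs (0.36 and -0.37), so the box was also in the promoter of a gene outside the shared fall. The summed class II level was 588–613 CPM for untreated wild type, 568–649.9 CPM for untreated Trim47-/-, 306–314 CPM for treated wild type and 276–284 CPM for treated Trim47-/-.

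Markers of B and plasma cells moved the same way as class II. Of 22 tested, 17 fell in both genotypes (77.3%), none rose and none had opposite signs, with a median of -1.79; 14 of the 17 fell at least 2-fold in each. Their summed level was 3249–3276 CPM for untreated wild type, 2813–2982 CPM for untreated Trim47-/-, 1130.0–1195 CPM for treated wild type and 813–849.8 CPM for treated Trim47-/-. None of the list's markers was at 0 in every library, and 3 (Ms4a1, Vpreb2 and Vpreb3) were too low to test. Summed dendritic cell markers stood at 1273–1333 CPM for untreated wild type, 1336–1444 CPM for untreated Trim47-/-, 988–1053 CPM for treated wild type and 999–1027 CPM for treated Trim47-/-. Flt3, also a receptor of lymphoid-primed progenitors, alone had means of 711, 915, 546 and 445 CPM in this order. Of 10 dendritic markers tested, 1 rose in both genotypes (10%), 2 fell (20%) and 2 had opposite signs (20%). Their median log2 changes were -1.03 in wild type and 0.19 in Trim47-/-, so the list shared no direction. The part of B, plasma and dendritic cells in the fall of class II RNA was not tested. Jchain, which joins secreted IgM and IgA (ENSMUSG00000067149, chr5:88519809-88527891), stood at 365, 361 and 367 CPM in wild type and 353, 358 and 171 CPM in libraries labelled Trim47-/- without the drug. After 5-FU Jchain had 44.5, 92.7 and 97 CPM in wild type and 29.1, 64.4 and 65.3 CPM in libraries labelled Trim47-/-. Untreated Trim47-/- replicate 3 was far below the other untreated libraries, and the first treated library of each genotype was below its 2 companions, yet treated and untreated libraries did not overlap. Its log2 change was -2.35 (SE 0.262, adjusted p = 1.30e-05), or -2.22 in wild type and -2.47 in Trim47-/-. Pax5, the factor that fixes B-cell identity, had 2.77, 2.43 and 3.25 CPM in wild type and 1.23, 1.77 and 2.20 CPM in libraries labelled Trim47-/- without the drug. After 5-FU Pax5 had 0.632, 0.569 and 0.506 CPM in wild type and 0, 0.0724 and 0.145 CPM in libraries labelled Trim47-/-. Pax5 changed by log2 -3.36 (SE 0.278, adjusted p = 1.07e-06), or -2.29 in wild type and -4.44 in Trim47-/-. Rag1, a subunit of the recombinase that assembles antigen receptors, went from 1.59–2.88 to 0.0722–0.821 CPM at log2 -2.79 (SE 0.182, adjusted p = 1.42e-07), or -1.38 in wild type and -4.20 in Trim47-/-. Iglc1, a light-chain constant region, went from 11.5–26.2 to 1.95–6.88 CPM at log2 -2.11 (SE 0.0731, adjusted p = 6.27e-10), or -1.95 in wild type and -2.27 in Trim47-/-; reads of near-identical immunoglobulin segments may have been split by the counting. Members of the list that did not pass in both genotypes included Cd79b (0.26 and -0.12 in wild type and Trim47-/-) and Sdc1 (0.50 and -0.091).

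Genes of multipotent and lymphoid-primed progenitors followed the B-cell genes in part: 9 of 18 fell in both genotypes (50%), 3 rose and 4 had opposite signs, with a median of -0.35. The lists overlap, since Rag1, Igll1 and Ighm are also in the B and plasma cell list. Il7r is also in the T and NK list, and Flt3 and Ccr9 in the dendritic list. Flt3, the cytokine receptor of lymphoid-primed progenitors, stood at 715, 717 and 702 CPM in wild type and 899, 923 and 923 CPM in libraries labelled Trim47-/- without the drug. After 5-FU Flt3 had 549, 537 and 553 CPM in wild type and 449, 443 and 445 CPM in libraries labelled Trim47-/-. It fell in both genotypes and farther in Trim47-/-, at log2 -0.71 (SE 0.0123, adjusted p = 1.38e-12), or -0.38 in wild type and -1.04 in Trim47-/-. The interaction was -0.66 (SE 0.0246, adjusted p = 2.14e-09). Il7r, the receptor for the lymphoid growth factor IL-7, went from 4.35–6.40 to 0.507–2.72 CPM at log2 -1.98 (SE 0.183, adjusted p = 2.82e-06), or -1.32 in wild type and -2.64 in Trim47-/-, and Ccr9, a thymus-homing receptor, went from 4.37–8.01 to 0.144–1.64 CPM at log2 -2.92 (SE 0.234, adjusted p = 8.14e-07), or -2.02 in wild type and -3.82 in Trim47-/-. Rag1, Il7r and Ccr9 are low-level genes here, with group means of at most 2.02 CPM after 5-FU. Cd48 and Wfdc17 were among those that rose, at log2 0.82 (SE 0.0308, adjusted p = 1.32e-09) and 0.48 (SE 0.0414, adjusted p = 1.64e-06) averaged over the genotypes. Dntt, which adds bases at receptor joints, had opposite signs (0.45 and -1.18). Among the few T and NK cell markers that could be tested, 11 of 20, Cd4, Lck and Il7r fell and Nkg7 and Klrb1c rose. The defining T-cell genes Cd3d, Cd3e, Cd3g and Cd8a and the NK-cell gene Ncr1 were too low to test, none of the untested markers of this list exceeding 13 counts in a library. Cd4 went from 5.68–9.48 to 0.949–1.60 CPM at log2 -2.57 (SE 0.136, adjusted p = 2.47e-08), or -2.41 in wild type and -2.73 in Trim47-/-. Summed T and NK markers stood at 149.9–153 CPM for untreated wild type, 151–157 CPM for untreated Trim47-/-, 169–172 CPM for treated wild type and 156–163 CPM for treated Trim47-/-. The sum moved upwards slightly while Cd4, Lck and Il7r moved downwards, and which members raised it was not tested.

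Erythroid genes formed the most complete block of shared rises next to the neutrophil genes. Of 19 erythroid genes tested, 14 rose in both genotypes (73.7%, against 9.64% of all genes), none fell and 3 had opposite signs, with a median of 1.23. Their sum was 629.9–639 CPM for untreated wild type, 757–775 CPM for untreated Trim47-/-, 1134–1166 CPM for treated wild type and 973–993 CPM for treated Trim47-/-. None was at 0 in every library. The globin gene Hbb-bt (ENSMUSG00000073940, chr7:103812524-103813996) stood at 23.9, 27.9 and 26.5 CPM in wild type and 43.8, 44.4 and 43.7 CPM in libraries labelled Trim47-/- without the drug. After 5-FU Hbb-bt had 178, 161 and 173 CPM in wild type and 142, 144 and 138 CPM in libraries labelled Trim47-/-. The rise was larger in wild type, at log2 2.19 (SE 0.0376, adjusted p = 1.19e-12), or 2.71 in wild type and 1.68 in Trim47-/-. The interaction was -1.03 (SE 0.0732, adjusted p = 4.22e-07). Hbb-bs, its near-identical neighbour, went from 10.5–19.3 to 44.6–61.7 CPM at log2 1.97 (SE 0.0637, adjusted p = 3.44e-10), or 2.43 in wild type and 1.51 in Trim47-/-, and reads shared between the 2 copies may have been split. Alas2, which makes the first step of haem synthesis in red cells, stood at 1.66, 1.73 and 1.04 CPM in wild type and 2.11, 3.19 and 2.54 CPM in libraries labelled Trim47-/- without the drug. After 5-FU Alas2 had 9.79, 8.29 and 7.97 CPM in wild type and 7.44, 9.78 and 7.11 CPM in libraries labelled Trim47-/-. Its log2 change was 2.09 (SE 0.142, adjusted p = 2.03e-07), or 2.55 in wild type and 1.63 in Trim47-/-. Gata1, the factor that drives erythroid and megakaryocyte genes, changed by 1.94 and 1.31 in wild type and Trim47-/-, and Epor, the erythropoietin receptor, by 1.35 and 0.93. Mfsd2b, which exports sphingosine-1-phosphate from red cells and platelets, stood at 12.1, 11.4 and 11.5 CPM in wild type and 8.58, 7.41 and 7.09 CPM in libraries labelled Trim47-/- without the drug. After 5-FU Mfsd2b had 37.5, 35.9 and 36.6 CPM in wild type and 31.2, 26.4 and 31.3 CPM in libraries labelled Trim47-/-. Mfsd2b changed by log2 1.798 (SE 0.0593, adjusted p = 4.09e-10), or 1.65 in wild type and 1.95 in Trim47-/-. The members with opposite signs were Car1, Car2 and Tfrc, the transferrin receptor, and Klf1, a master factor of the lineage, was not called in both genotypes (0.86 and -0.21). The Alas2 promoter (plus strand of chrX:150547237-150547416) is shown with the GATA-factor site AGATAA in capitals, here on the other strand as TTATCT, 86 bases before the start.
Alas2: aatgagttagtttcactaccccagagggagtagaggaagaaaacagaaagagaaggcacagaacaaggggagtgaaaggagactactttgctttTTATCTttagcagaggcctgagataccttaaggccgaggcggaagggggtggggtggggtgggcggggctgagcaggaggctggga
Of 13 erythroid genes with a RefSeq promoter, 3 held AGATAA on either strand (23.1%), against 12.7% of all genes, the motif being chosen after the values were seen.

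Of 16 megakaryocyte and platelet genes, 8 rose in both genotypes (50%), none fell and 2 had opposite signs, with a median of 0.76 and a sum of 1043–1063 CPM for untreated wild type, 951–964 CPM for untreated Trim47-/-, 1228–1231 CPM for treated wild type and 1186–1217 CPM for treated Trim47-/-. Selp encodes P-selectin, stored in platelets and endothelium (ENSMUSG00000026580, chr1:164115264-164150026). It stood at 31.3, 32.6 and 30.6 CPM in wild type and 24.1, 24.1 and 21.8 CPM in libraries labelled Trim47-/- without the drug. After 5-FU Selp had 158, 155 and 157 CPM in wild type and 94.3, 89.3 and 93.2 CPM in libraries labelled Trim47-/-. Treated libraries lay above all untreated ones, at log2 2.15 (SE 0.0309, adjusted p = 2.21e-13), or 2.31 in wild type and 1.98 in Trim47-/-. Itga2b, the platelet integrin CD41, went from 56.5–75.3 to 134–184 CPM at log2 1.26 (SE 0.0238, adjusted p = 3.05e-12), or 1.30 in wild type and 1.22 in Trim47-/-, and its interaction was -0.075 (SE 0.0472, adjusted p = 0.201). Cd9, a tetraspanin, went from 27.7–32 to 60.3–76.7 CPM at log2 1.16 (SE 0.0435, adjusted p = 1.22e-09), or 1.28 in wild type and 1.04 in Trim47-/-. Vwf, von Willebrand factor, changed by 1.13 and 0.72 in wild type and Trim47-/-. Ppbp, the platelet chemokine precursor, had opposite signs (-0.70 and 1.85). Gp6 and Mpig6b were too low to test, and none of the list was at 0 in every library.

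Neutrophil granule genes rose in both genotypes for 15 of 19 members tested (78.9%), none fell and none had opposite signs, with a median of 1.11. Their sum was 3760.2–3892 CPM for untreated wild type, 3704–3773 CPM for untreated Trim47-/-, 4717–4803 CPM for treated wild type and 7259–7613 CPM for treated Trim47-/-, so all treated libraries lay above all untreated ones and the treated Trim47-/- libraries were the highest. Ly6g was too low to test, with at most 19 counts in a library. Lcn2, an iron-binding granule protein (ENSMUSG00000026822, chr2:32384633-32388252), stood at 14.5, 13.7 and 14.2 CPM in wild type and 21.6, 22.9 and 21.8 CPM in libraries labelled Trim47-/- without the drug. After 5-FU Lcn2 had 60.4, 55.6 and 59.9 CPM in wild type and 109, 98.7 and 106 CPM in libraries labelled Trim47-/-. Its log2 change was 2.15 (SE 0.0374, adjusted p = 1.41e-12), or 2.05 in wild type and 2.24 in Trim47-/-. Ltf, lactoferrin (ENSMUSG00000032496, chr9:111019271-111042767), stood at 29, 27.4 and 27.5 CPM in wild type and 43.2, 46.4 and 47.2 CPM in libraries labelled Trim47-/- without the drug. After 5-FU Ltf had 87.2, 79.3 and 90.8 CPM in wild type and 188, 187 and 193 CPM in libraries labelled Trim47-/-. Ltf changed by log2 1.84 (SE 0.0370, adjusted p = 5.10e-12), or 1.62 in wild type and 2.06 in Trim47-/-. Cd177, a neutrophil surface protein, stood at 10.8, 11.5 and 9.74 CPM in wild type and 14.6, 16.5 and 13.4 CPM in libraries labelled Trim47-/- without the drug. After 5-FU Cd177 had 36.5, 34.9 and 36.8 CPM in wild type and 56.1, 63.7 and 56.3 CPM in libraries labelled Trim47-/-. Cd177 changed by log2 1.87 (SE 0.0616, adjusted p = 4.08e-10), or 1.76 in wild type and 1.98 in Trim47-/-, and its interaction was 0.23 (SE 0.122, adjusted p = 0.136). Cxcr2, the receptor for Cxcl2, went from 1.57–2.28 to 5.22–6.74 CPM at log2 1.73 (SE 0.0895, adjusted p = 1.96e-08), or 1.52 in wild type and 1.93 in Trim47-/-. Receptor and ligand thus moved in opposite directions in both genotypes. The primary granule genes Elane (0.43 and 0.69 in wild type and Trim47-/-), Prtn3 (0.37 and 1.03) and Ctsg (0.34 and 1.65) rose less in wild type than the secondary granule genes Ltf and Lcn2 did, by their log2 changes set side by side, a difference that was not tested. Mpo was not called in both genotypes (-0.052 and 0.92), and Csf3r, the G-CSF receptor, had log2 changes of -0.0089 and -0.30.

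Monocyte and macrophage genes did not share a direction. Of 17 tested, 3 rose in both genotypes, 2 fell and 5 had opposite signs, all 5 lower in wild type and higher in Trim47-/-, and their sum was 1856–1930.2 CPM for untreated wild type, 1427–1559.8 CPM for untreated Trim47-/-, 1171–1215 CPM for treated wild type and 1678–1707 CPM for treated Trim47-/-. Klf4, which fell and is also in the immediate early list, had means of 1028, 871, 477 and 441 CPM in this order. The sums therefore do not stand for monocyte genes alone. Lyz2, lysozyme, went from 156–173 to 202–248 CPM at log2 0.46 (SE 0.0283, adjusted p = 8.09e-08), or 0.36 in wild type and 0.57 in Trim47-/-, whereas Csf1r, the M-CSF receptor, had opposite signs (-0.64 and 1.26). C1qb, C1qc and Ms4a7 were too low to test, Ms4a7 with at most 3 counts in a library. Of 12 mast cell, basophil and eosinophil genes 2 rose (1 without any of 7 single libraries) and 4 fell, with a sum of 386–459.8 CPM for untreated wild type, 375–457 CPM for untreated Trim47-/-, 399.9–510.2 CPM for treated wild type and 265–318 CPM for treated Trim47-/-, ranges that overlapped between treated wild type and both untreated groups. Prss34, a basophil protease, went from 42.7–49.4 to 12–16.6 CPM at log2 -1.68 (SE 0.0373, adjusted p = 1.25e-11), or -1.42 in wild type and -1.94 in Trim47-/-, while Siglecf, an eosinophil lectin, went from 5.84–8.23 to 12.4–15.6 CPM at log2 1.01 (SE 0.0781, adjusted p = 5.98e-07), or 0.95 in wild type and 1.08 in Trim47-/-. Of 13 endothelial and stromal genes 2 rose (1 without any of 5 single libraries) and 2 fell, shares of 15.4% each, with sums of 240.4–251 CPM for untreated wild type, 256–259 CPM for untreated Trim47-/-, 281–289 CPM for treated wild type and 218–226 CPM for treated Trim47-/-. Cxcl12, the niche chemokine, went from 3.19–6.63 to 1.27–1.88 CPM at log2 -1.56 (SE 0.106, adjusted p = 1.98e-07), or -1.34 in wild type and -1.79 in Trim47-/-. The part of mature blood cells in the shared rises and falls was not tested.

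**Figure D3:**
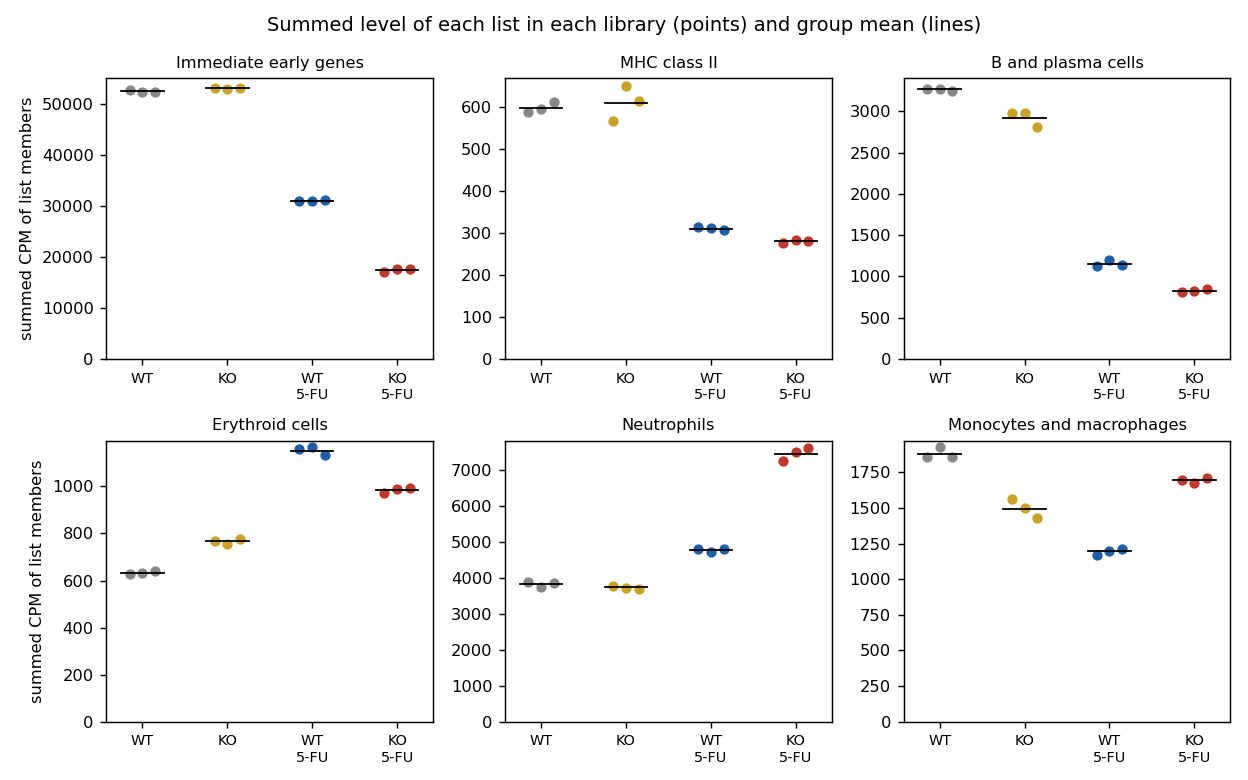
Summed CPM of 6 gene lists (immediate early genes, MHC class II, B and plasma cells, erythroid cells, neutrophils, monocytes and macrophages) in each of the 12 libraries (points), by group, with the group mean as a line. The first 3 lists are lower and the erythroid and neutrophil lists higher in every treated library than in every untreated one, while the monocyte sums of treated Trim47-/- lie between the untreated groups. The monocyte sums include Klf4, which is also in the immediate early list.

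The 12 genes with the largest shared rise, ranked by the smaller of the 2 within-genotype changes, were Lipg, Col18a1, Clca3a1, Lrg1, Lcn2, Selp, Ecm1, Clec10a, Cd177, Hbb-bt, Mfsd2b and Ltf. Lipg, endothelial lipase, which cleaves phospholipids of HDL, stood at 0.761, 0.762 and 0.691 CPM in wild type and 0.981, 1.82 and 1.56 CPM in libraries labelled Trim47-/- without the drug. After 5-FU Lipg had 23.2, 25.4 and 23.3 CPM in wild type and 20.7, 21.2 and 23.1 CPM in libraries labelled Trim47-/-. It was close to absent without the drug and its log2 change was 4.45 (SE 0.112, adjusted p = 3.82e-11), or 5.01 in wild type and 3.89 in Trim47-/-, the largest of the 12, with the larger rise in wild type (interaction -1.12 (SE 0.253, adjusted p = 0.00284)). Col18a1, a basement membrane collagen from which endostatin is cut (ENSMUSG00000001435, chr10:77052178-77166548), stood at 2.35, 2.49 and 3.39 CPM in wild type and 2.79, 3.00 and 2.69 CPM in libraries labelled Trim47-/- without the drug. After 5-FU Col18a1 had 39.5, 43 and 40.4 CPM in wild type and 31.3, 31.2 and 30.4 CPM in libraries labelled Trim47-/-. Col18a1 changed by log2 3.67 (SE 0.0712, adjusted p = 3.57e-12), or 3.90 in wild type and 3.45 in Trim47-/-. Clca3a1, a chloride-channel accessory protein (ENSMUSG00000056025, chr3:144729677-144760977), stood at 6.71, 5.96 and 7.19 CPM in wild type and 7.31, 5.75 and 6.79 CPM in libraries labelled Trim47-/- without the drug. After 5-FU Clca3a1 had 56.2, 55.9 and 59.5 CPM in wild type and 34.4, 34.8 and 35.1 CPM in libraries labelled Trim47-/-. Clca3a1 changed by log2 2.75 (SE 0.0603, adjusted p = 1.12e-11), or 3.11 in wild type and 2.39 in Trim47-/-. These 3 genes belong to none of the fixed lists, and treated libraries stood clear of untreated ones for each. Lrg1, a secreted leucine-rich glycoprotein that modulates TGF-beta signalling (ENSMUSG00000037095, chr17:56119678-56122001), stood at 3.25, 4.78 and 3.25 CPM in wild type and 4.95, 5.55 and 4.79 CPM in libraries labelled Trim47-/- without the drug. After 5-FU Lrg1 had 22.5, 21.3 and 18.9 CPM in wild type and 23.9, 26.7 and 25.8 CPM in libraries labelled Trim47-/-. Lrg1 changed by log2 2.39 (SE 0.0922, adjusted p = 1.57e-09), or 2.47 in wild type and 2.32 in Trim47-/-. The interaction was -0.15 (SE 0.184, adjusted p = 0.517). Ecm1, extracellular matrix protein 1 (ENSMUSG00000028108, chr3:95734147-95739569), stood at 8.78, 8.18 and 8.85 CPM in wild type and 6.42, 6.53 and 7.04 CPM in libraries labelled Trim47-/- without the drug. After 5-FU Ecm1 had 33.7, 25.8 and 30.8 CPM in wild type and 24.8, 25.9 and 25.5 CPM in libraries labelled Trim47-/-. Ecm1 changed by log2 1.87 (SE 0.0660, adjusted p = 7.39e-10), or 1.81 in wild type and 1.93 in Trim47-/-. The interaction was 0.12 (SE 0.131, adjusted p = 0.460). Clec10a, a C-type lectin of myeloid cells (ENSMUSG00000000318, chr11:70156197-70170834), stood at 6.15, 7.90 and 6.98 CPM in wild type and 6.62, 4.96 and 5.62 CPM in libraries labelled Trim47-/- without the drug. After 5-FU Clec10a had 30.8, 35.1 and 45.8 CPM in wild type and 17.4, 18.2 and 24 CPM in libraries labelled Trim47-/-. Clec10a changed by log2 2.10 (SE 0.128, adjusted p = 7.93e-08), or 2.41 in wild type and 1.79 in Trim47-/-. For Lrg1, Ecm1, Clec10a, Cd177 and Mfsd2b the difference between the genotypes' responses did not pass, which does not show that they were alike.

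Among the 12 genes with the largest shared fall were Il10, H2-Q10, Jchain, Shisa8, H2-Eb1, H2-Aa, Cxcl2, Egr4, Cd74, Serpinf1 and Cd69, and 3 of these were MHC class II genes. H2-Q10, which encodes a secreted class I molecule (ENSMUSG00000067235, chr17:35470089-35474563), stood at 25.4, 37.4 and 24.1 CPM in wild type and 31.4, 5.60 and 16.5 CPM in libraries labelled Trim47-/- without the drug. After 5-FU H2-Q10 had 5.05, 3.98 and 5.00 CPM in wild type and 2.24, 4.20 and 3.99 CPM in libraries labelled Trim47-/-. It varied within groups, as its SE shows, at log2 -2.49 (SE 0.363, adjusted p = 1.16e-04), or -2.63 in wild type and -2.36 in Trim47-/-; it has near-identical neighbours among the H2-Q genes. Shisa8, a transmembrane adaptor (ENSMUSG00000096883, chr15:82206168-82212815), stood at 37.9, 39 and 36 CPM in wild type and 60.4, 62.1 and 60.2 CPM in libraries labelled Trim47-/- without the drug. After 5-FU Shisa8 had 7.83, 9.11 and 7.47 CPM in wild type and 5.20, 5.79 and 5.08 CPM in libraries labelled Trim47-/-. Shisa8 changed by log2 -2.86 (SE 0.0536, adjusted p = 2.82e-12), or -2.21 in wild type and -3.50 in Trim47-/-. The interaction was -1.30 (SE 0.107, adjusted p = 1.33e-06). Serpinf1, the secreted anti-angiogenic factor PEDF (ENSMUSG00000000753, chr11:75409769-75422701), stood at 47.1, 48.7 and 42.8 CPM in wild type and 50.4, 48.3 and 46.9 CPM in libraries labelled Trim47-/- without the drug. After 5-FU Serpinf1 had 7.83, 8.79 and 8.16 CPM in wild type and 11.5, 13.3 and 13.3 CPM in libraries labelled Trim47-/-. Serpinf1 changed by log2 -2.21 (SE 0.0530, adjusted p = 2.53e-11), or -2.48 in wild type and -1.93 in Trim47-/-. Shisa8 fell farther in Trim47-/- and Serpinf1 farther in wild type.

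**Figure D4:**
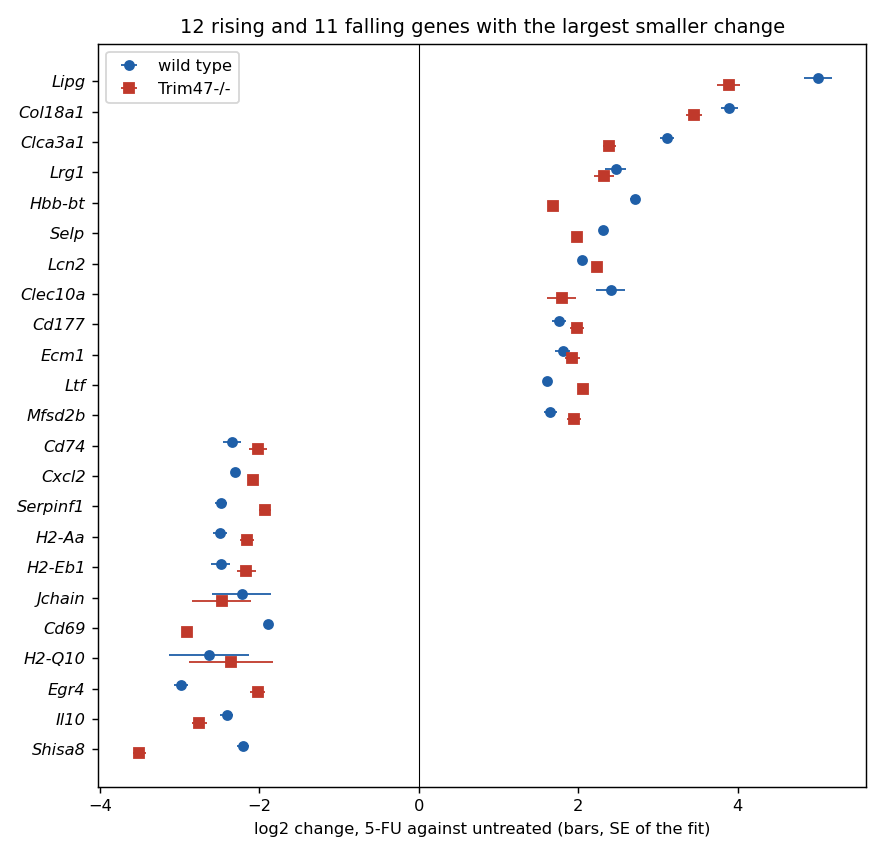
Log2 change after 5-FU (horizontal axis) with its SE (bars) in wild type and in libraries labelled Trim47-/- (2 colours), for the 12 genes with the largest shared rise and 11 of those with the largest shared fall. Lipg has the largest rise in both genotypes, and every gene plotted was chosen for having the same sign in both.

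The list of LT-HSC identity genes was split. It also holds Cd34, Cd48 and Flt3, which the usual gate excludes, and Cd48 is among its rises and Flt3 among its falls. Itga2b, Selp and Vwf are also in the megakaryocyte list. Of these, Itga2b and Selp are the 2 genes of the LT-HSC list that rose at least 2-fold in each genotype. Of 38 tested, 6 rose in both genotypes, 8 fell and 10 had opposite signs (26.3%, against 15.7% of all genes), all 10 higher in wild type and lower in Trim47-/-. Slamf1, which encodes CD150, stood at 2.42, 1.59 and 1.66 CPM in wild type and 2.79, 2.80 and 2.98 CPM in libraries labelled Trim47-/- without the drug. After 5-FU Slamf1 had 16.7, 16.3 and 16 CPM in wild type and 5.63, 5.36 and 6.02 CPM in libraries labelled Trim47-/-. It rose in both genotypes, at log2 2.05 (SE 0.0863, adjusted p = 3.48e-09), or 3.11 in wild type and 0.99 in Trim47-/-, and rose less in Trim47-/- (interaction -2.12 (SE 0.175, adjusted p = 1.36e-06)). Cd48, which the usual gate excludes, rose as well, from 52–58.7 to 83.5–108 CPM, at log2 0.82 (SE 0.0308, adjusted p = 1.32e-09), or 0.89 in wild type and 0.74 in Trim47-/-. Ndn, necdin, a growth suppressor of quiescent stem cells, went from 4.23–6.53 to 0.870–2.03 CPM at log2 -1.797 (SE 0.149, adjusted p = 1.09e-06), or -1.36 in wild type and -2.23 in Trim47-/-, and Sult1a1, a sulfotransferase, from 4.42–7.22 to 0.435–3.54 CPM at log2 -1.91 (SE 0.0980, adjusted p = 1.77e-08), or -0.46 in wild type and -3.37 in Trim47-/-. Robo4, a guidance receptor that holds stem cells in the marrow, went from 35.2–56.6 to 15.1–29.8 CPM at log2 -1.07 (SE 0.0365, adjusted p = 5.65e-10), or -0.34 in wild type and -1.79 in Trim47-/-. Kit, the stem cell factor receptor, stood at 463, 468 and 467 CPM in wild type and 498, 492 and 493 CPM in libraries labelled Trim47-/- without the drug. After 5-FU Kit had 461, 455 and 462 CPM in wild type and 309, 303 and 295 CPM in libraries labelled Trim47-/-, where only the treated Trim47-/- libraries were low, with log2 -0.021 (adjusted p = 0.371) in wild type and -0.71 (adjusted p = 6.58e-11) in Trim47-/-. Procr, which encodes the stem cell marker EPCR, had the same pattern, with log2 -0.022 (adjusted p = 0.789) in wild type and -0.96 (adjusted p = 1.16e-07) in Trim47-/-. Kit and Procr were therefore called in the averaged effect without being common responders. Cd34 stood between 667 and 777 CPM untreated and 725 and 737 CPM after 5-FU, at log2 0.012 (SE 0.0192, adjusted p = 0.630). Ly6a stood at 44.7, 38.9 and 61.2 CPM in wild type and 35, 63.6 and 32.3 CPM in libraries labelled Trim47-/- without the drug. After 5-FU Ly6a had 55.3, 64.8 and 90.7 CPM in wild type and 62.5, 91 and 109 CPM in libraries labelled Trim47-/-, where libraries of 1 group differed widely and treatments overlapped, and the averaged effect passed at 0.77 (SE 0.209, adjusted p = 0.00792). Within the genotypes Ly6a had log2 0.54 (adjusted p = 0.153) in wild type and 1.003 (adjusted p = 0.0117) in Trim47-/-, so it passed in Trim47-/- but not in wild type, and the interaction was 0.46 (SE 0.416, adjusted p = 0.375). Among the genes with opposite signs were Mecom (0.28 and -0.53 in wild type and Trim47-/-), Gata3 (1.24 and -0.41), Esam (1.47 and -0.65) and Angpt1 (0.17 and -1.42).

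Adhesion and homing genes of the niche rose more often than all genes did: 12 of 27 rose in both genotypes (44.4%), 2 fell and 6 had opposite signs, with a median of 0.30. The risers included 6 integrin genes (Itga2b, Itga4, Itgal, Itgb1, Itgb2 and Itgb3), with Itgb2 from 35.3–44 to 62.8–70.8 CPM, log2 0.72 (SE 0.0395, adjusted p = 3.39e-08), or 0.84 in wild type and 0.60 in Trim47-/-. Some of these, Itga2b, Itgb3 and Cd9, are also in the megakaryocyte list. Cxcr4, the receptor through which Cxcl12 retains stem cells in marrow, stood at 455, 454 and 464 CPM in wild type and 301, 296 and 294 CPM in libraries labelled Trim47-/- without the drug. After 5-FU Cxcr4 had 136, 139 and 136 CPM in wild type and 157, 153 and 160.3 CPM in libraries labelled Trim47-/-. It fell in both genotypes, at log2 -1.33 (SE 0.0155, adjusted p = 3.07e-14), or -1.74 in wild type and -0.92 in Trim47-/-, with the larger fall in wild type (interaction 0.82 (SE 0.0306, adjusted p = 2.09e-09)). In the TGF-beta and BMP list 2 of 26 rose and 3 fell, shares near those of all genes. Tgfbr3, a coreceptor that presents TGF-beta, went from 25.2–29.3 to 60.7–87.3 CPM at log2 1.40 (SE 0.0381, adjusted p = 7.00e-11), or 1.61 in wild type and 1.19 in Trim47-/-, and Id3, an inhibitor of helix-loop-helix factors, from 42.1–50.04 to 62–72.2 CPM at log2 0.52 (SE 0.0344, adjusted p = 1.54e-07), or 0.53 in wild type and 0.52 in Trim47-/-. Bmpr1a, a BMP receptor, changed by -1.56 and -1.21 in wild type and Trim47-/-.

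Among cell cycle genes the shared falls were mainly in the DNA replication list and the shared rises in the mitosis list, a difference between lists that was not tested. Of 42 DNA replication genes, 11 fell in both genotypes (26.2%), 1 rose and 8 had opposite signs, with a median of -0.075. Of 41 mitosis genes, 10 rose (24.4%), 1 fell and 13 had opposite signs, with a median of 0.056. In Trim47-/- alone the medians were close to each other, at -0.01 for DNA replication, with 15 genes higher and 14 lower, and -0.011 for mitosis, with 17 higher and 13 lower. In wild type they were -0.17 and 0.15. None of the genes of either list reached 2-fold in both genotypes. Pcna, the sliding clamp of DNA polymerase, stood at 287, 285 and 296 CPM in wild type and 295, 299 and 297 CPM in libraries labelled Trim47-/- without the drug. After 5-FU Pcna had 211, 216 and 208 CPM in wild type and 256, 263 and 264 CPM in libraries labelled Trim47-/-. Pcna changed by log2 -0.32 (SE 0.0158, adjusted p = 1.31e-08), or -0.45 in wild type and -0.18 in Trim47-/-. Pold1, the catalytic subunit of polymerase delta, and Rfc3, of the clamp loader, fell at log2 -0.27 (SE 0.0174, adjusted p = 1.38e-07) and -0.28 (SE 0.0556, adjusted p = 0.00101). Rrm2, a subunit of ribonucleotide reductase and the list's riser, stood at 91.6, 86.5 and 88.5 CPM in wild type and 97.7, 95.9 and 96.2 CPM in libraries labelled Trim47-/- without the drug. After 5-FU Rrm2 had 118, 116 and 118 CPM in wild type and 134, 133 and 134 CPM in libraries labelled Trim47-/-. Rrm2 changed by log2 0.43 (SE 0.0187, adjusted p = 3.99e-09), or 0.40 in wild type and 0.47 in Trim47-/-. Ccnb2, a cyclin of mitosis, stood at 55.4, 59.8 and 58 CPM in wild type and 63.3, 65.7 and 62 CPM in libraries labelled Trim47-/- without the drug. After 5-FU Ccnb2 had 97.6, 96.1 and 94.6 CPM in wild type and 89.7, 88.9 and 91 CPM in libraries labelled Trim47-/-. Ccnb2 changed by log2 0.62 (SE 0.0248, adjusted p = 2.29e-09), or 0.74 in wild type and 0.50 in Trim47-/-. Ube2c, which tags mitotic cyclins for degradation, went from 60.1–64.4 to 78.3–80.9 CPM at log2 0.37 (SE 0.0233, adjusted p = 1.11e-07), or 0.37 in wild type and 0.37 in Trim47-/-. The interaction was 0.006 (SE 0.0466, adjusted p = 0.932). Mki67, the proliferation marker Ki-67, had opposite signs, with log2 -0.40 (adjusted p = 2.46e-09) in wild type and 0.14 (adjusted p = 1.18e-05) in Trim47-/-. In the promoter windows of 300 bases, the E2F site TTTNGCGC stood on either strand in 11 of 33 DNA replication genes (33.3%) and 2 of 34 mitosis genes (5.88%), against 1.57% of all genes, and the CCAAT box in 19 of 33 (57.6%) and 24 of 34 (70.6%), against 41.1%. Among the common responders of the lists with a promoter, 3 of 10 replication genes held the E2F site and 8 of 9 mitosis genes held CCAAT.

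Genes that hold cells at rest fell more often than all genes did. Of 25 quiescence genes and cell cycle brakes, 11 fell in both genotypes (44.0%), 1 rose and 6 had opposite signs, with a median of -0.30, but Btg2, Egr1, Klf2, Klf4 and Klf6 among the 11 are also in the immediate early list. Btg1, Cdkn1a, Cdkn2c, Ndn and Tob1 were among the others. Cdkn1a, the cyclin-dependent kinase inhibitor p21, stood at 432, 258 and 247 CPM in wild type and 254, 309 and 341 CPM in libraries labelled Trim47-/- without the drug. After 5-FU Cdkn1a had 192, 187 and 215 CPM in wild type and 256, 148 and 188 CPM in libraries labelled Trim47-/-. Libraries of 1 group differed widely, treated and untreated values overlapped, and the change was log2 -0.63 (SE 0.161, adjusted p = 0.00548), or -0.66 in wild type and -0.61 in Trim47-/-. Cdkn1c, the inhibitor p57 of resting stem cells, had opposite signs, with log2 0.62 (adjusted p = 2.03e-04) in wild type and -0.88 (adjusted p = 1.13e-05) in Trim47-/-. Rb1, the retinoblastoma protein that blocks E2F, went from 37.9–41.3 to 40.6–50.9 CPM at log2 0.21 (SE 0.0316, adjusted p = 1.56e-04), with overlap between the treatments.

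Genes of fluoropyrimidine action and metabolism were common responders at a share near that of all genes, 5 of 24 (20.8%) against 19.8%. Of these 24, 3 rose in both genotypes (12.5%), 2 fell (8.33%) and 8 had opposite signs (33.3%), and leaving out any of 6 single libraries turned the 2 falls into 1. Tyms, thymidylate synthase, the enzyme 5-FU inhibits, stood at 42.8, 42.5 and 39.4 CPM in wild type and 46.2, 42.4 and 43.2 CPM in libraries labelled Trim47-/- without the drug. After 5-FU Tyms had 37.8, 32.8 and 37.1 CPM in wild type and 52, 47.5 and 48.8 CPM in libraries labelled Trim47-/-. It had opposite signs, with log2 -0.21 (adjusted p = 0.0160) in wild type and 0.17 (adjusted p = 0.0333) in Trim47-/-, and its averaged change was -0.02 (SE 0.0443, adjusted p = 0.723). Upp1, uridine phosphorylase, which can activate the drug, went from 8.50–14.1 to 6.63–7.15 CPM at log2 -0.56 (SE 0.0766, adjusted p = 6.86e-05), or -0.80 in wild type and -0.32 in Trim47-/-. Samhd1, a deoxynucleotide triphosphatase, went from 103–113 to 121–159 CPM at log2 0.34 (SE 0.0191, adjusted p = 3.57e-08), or 0.57 in wild type and 0.12 in Trim47-/-, and Smug1, a uracil-DNA glycosylase, from 1.66–2.97 to 2.54–3.79 CPM at log2 0.60 (SE 0.133, adjusted p = 0.00240), with overlap. Dpys and Cda were too low to test. Of 27 p53 targets, 7 fell in both genotypes (25.9%), 1 rose and 10 had opposite signs (37.0%, against 15.7% of all genes), with a median of -0.036. Among the 7, Btg2 is also in the immediate early and quiescence lists and Cdkn1a in the quiescence list. Btg2 was the only p53 target that fell at least 2-fold in each genotype. Gdf15, a stress cytokine, stood at 62.5, 61.3 and 59 CPM in wild type and 66.8, 62.6 and 66 CPM in libraries labelled Trim47-/- without the drug. After 5-FU Gdf15 had 35, 38 and 38.8 CPM in wild type and 8.74, 8.18 and 10.2 CPM in libraries labelled Trim47-/-. Gdf15 changed by log2 -1.78 (SE 0.0495, adjusted p = 8.74e-11), or -0.71 in wild type and -2.85 in Trim47-/-. The interaction was -2.14 (SE 0.0984, adjusted p = 1.21e-08). Tnfrsf10b, a death receptor, went from 25.8–43.2 to 14.1–20.6 CPM at log2 -0.97 (SE 0.0956, adjusted p = 4.52e-06), or -1.06 in wild type and -0.89 in Trim47-/-. Zmat3, the riser, went from 4.76–6.70 to 7.01–8.59 CPM at log2 0.44 (SE 0.0893, adjusted p = 0.00132). Mdm2 and Pmaip1, 2 of the most direct p53 targets, had opposite signs (-0.68 and 0.75 and -0.90 and 2.18). Of 30 genes of double-strand break and crosslink repair, 4 fell (13.3%) and 1 rose, near the shares over all genes, and Atm, the kinase that signals breaks, went from 68.2–90.4 to 50.5–58.7 CPM at log2 -0.53 (SE 0.0246, adjusted p = 7.46e-09), or -0.78 in wild type and -0.29 in Trim47-/-.

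Nuclear genes of the respiratory chain rose together by small amounts. Of 58 tested, 25 rose in both genotypes (43.1%), none fell and 1 had opposite signs, with a median of 0.29, and 55 of the 58 were higher in the averaged effect. Their sum was 5197–5239 CPM for untreated wild type, 5159–5187 CPM for untreated Trim47-/-, 5739–5814 CPM for treated wild type and 6720.1–6917 CPM for treated Trim47-/-. In wild type 26 were higher and in Trim47-/- 56, so the number shared was set by wild type. Ndufb9, a complex I subunit, stood at 43.4, 45.5 and 45.2 CPM in wild type and 45.9, 49.8 and 46.3 CPM in libraries labelled Trim47-/- without the drug. After 5-FU Ndufb9 had 56.1, 59.96 and 60.2 CPM in wild type and 61.7, 69.5 and 63.7 CPM in libraries labelled Trim47-/-. Ndufb9 changed by log2 0.43 (SE 0.0372, adjusted p = 1.71e-06), or 0.40 in wild type and 0.46 in Trim47-/-, and Ndufb5, another, went from 33.8–37.2 to 38–55.3 CPM at log2 0.43 (SE 0.0738, adjusted p = 3.75e-04). At an adjusted p under 0.01 the count of 25 fell to 14. The mitochondrially encoded genes did not follow: of 13, 4 fell in both genotypes and none rose, mt-Cytb at log2 -0.15 (SE 0.00804, adjusted p = 2.02e-08) and mt-Nd4 at -0.17 (SE 0.0131, adjusted p = 6.28e-07), with treated and untreated libraries overlapping. Of 26 glycolysis genes, 10 rose (38.5%), 2 fell and 7 had opposite signs, with a median of 0.21, and at an adjusted p under 0.01 6 rose. Slc16a3, a lactate exporter, went from 8.54–11 to 16–21 CPM at log2 0.89 (SE 0.0635, adjusted p = 3.19e-07), or 0.71 in wild type and 1.06 in Trim47-/-, and Eno1, enolase, from 92.7–100.4 to 123–183 CPM at log2 0.64 (SE 0.0263, adjusted p = 2.68e-09), or 0.43 in wild type and 0.85 in Trim47-/-. Ldhb, which favours the conversion of lactate to pyruvate, fell from 26.3–46.6 to 10.6–19.2 CPM at log2 -1.24 (SE 0.0646, adjusted p = 2.13e-08), or -0.63 in wild type and -1.84 in Trim47-/-. Of 25 cholesterol synthesis genes, 9 rose (36.0%), 1 fell and 3 had opposite signs, with a median of 0.22. Fdps, which makes farnesyl pyrophosphate, stood at 25.4, 25.4 and 27.6 CPM in wild type and 21.2, 21.2 and 21.2 CPM in libraries labelled Trim47-/- without the drug. After 5-FU Fdps had 41.4, 41.4 and 38.4 CPM in wild type and 46.3, 51.2 and 51.6 CPM in libraries labelled Trim47-/-. Fdps changed by log2 0.93 (SE 0.0399, adjusted p = 4.03e-09), or 0.63 in wild type and 1.23 in Trim47-/-. The sterol element TCACNCCAC was found on either strand in 1 of 17 promoters of the list (5.88%), against 1.44% of all genes.

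The unfolded protein response, the programme that answers misfolded protein in the endoplasmic reticulum, had 7 of 28 genes falling in both genotypes (25%), 3 rising and 7 with opposite signs. All 7 with opposite signs were lower in wild type and higher in Trim47-/-. The median of the list was -0.25 in wild type and 0.33 in Trim47-/-, so its averaged median of 0.10 stands for neither genotype. Hspa5, its main chaperone BiP, stood at 1628, 1627 and 1617 CPM in wild type and 1879.5, 1865 and 1832 CPM in libraries labelled Trim47-/- without the drug. After 5-FU Hspa5 had 967, 970.2 and 967 CPM in wild type and 1174, 1131 and 1199.6 CPM in libraries labelled Trim47-/-. Hspa5 changed by log2 -0.71 (SE 0.0135, adjusted p = 3.26e-12), or -0.75 in wild type and -0.67 in Trim47-/-. Ddit3, the factor CHOP of its death-promoting branch, stood at 202, 194 and 191 CPM in wild type and 111, 111 and 100.9 CPM in libraries labelled Trim47-/- without the drug. After 5-FU Ddit3 had 40.7, 40.4 and 38.7 CPM in wild type and 46.3, 49.98 and 46.1 CPM in libraries labelled Trim47-/-. Ddit3 changed by log2 -1.74 (SE 0.0334, adjusted p = 3.38e-12), or -2.29 in wild type and -1.18 in Trim47-/-. The interaction was 1.11 (SE 0.0657, adjusted p = 9.00e-08). Canx, Pdia4 and Dnajc3, chaperones and helpers of folding, rose, at log2 0.22 (SE 0.0150, adjusted p = 2.47e-07), 0.40 (SE 0.0207, adjusted p = 2.18e-08) and 0.32 (SE 0.0217, adjusted p = 1.74e-07). The ER stress element, CCAAT and CCACG spaced by 9 bases, was found in 9 of 24 promoters of the list (37.5%) against 0.137% of all genes, and Canx and Dnajc3, which rose, held it like Hspa5 and Derl3, which fell. In the type I interferon list 1 of 47 rose in both genotypes, 7 fell (14.9%) and 17 had opposite signs (36.2%, against 15.7% of all genes), 14 of them lower in wild type and higher in Trim47-/-. Ifitm1, which restricts virus entry, was its riser, from 263–296 to 362–444 CPM at log2 0.53 (SE 0.0161, adjusted p = 2.13e-10), or 0.47 in wild type and 0.58 in Trim47-/-, and Irf1 fell from 169–203 to 99.4–112 CPM at log2 -0.85 (SE 0.0327, adjusted p = 1.62e-09), or -0.81 in wild type and -0.89 in Trim47-/-. The interferon-stimulated response element, searched as an exact pattern on either strand, was in 18 of 34 promoters of the list (52.9%), against 3.99% of all genes, and in 0 of the 4 common responders with a promoter. Of 26 Myc and ribosome biogenesis genes 15 had opposite signs (57.7%), 14 of them lower in wild type and higher in Trim47-/-, and 1 was a common responder, Odc1, which makes polyamines, at log2 -0.78 (SE 0.0510, adjusted p = 1.53e-07), or -1.09 in wild type and -0.47 in Trim47-/-.

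**Figure D5:**
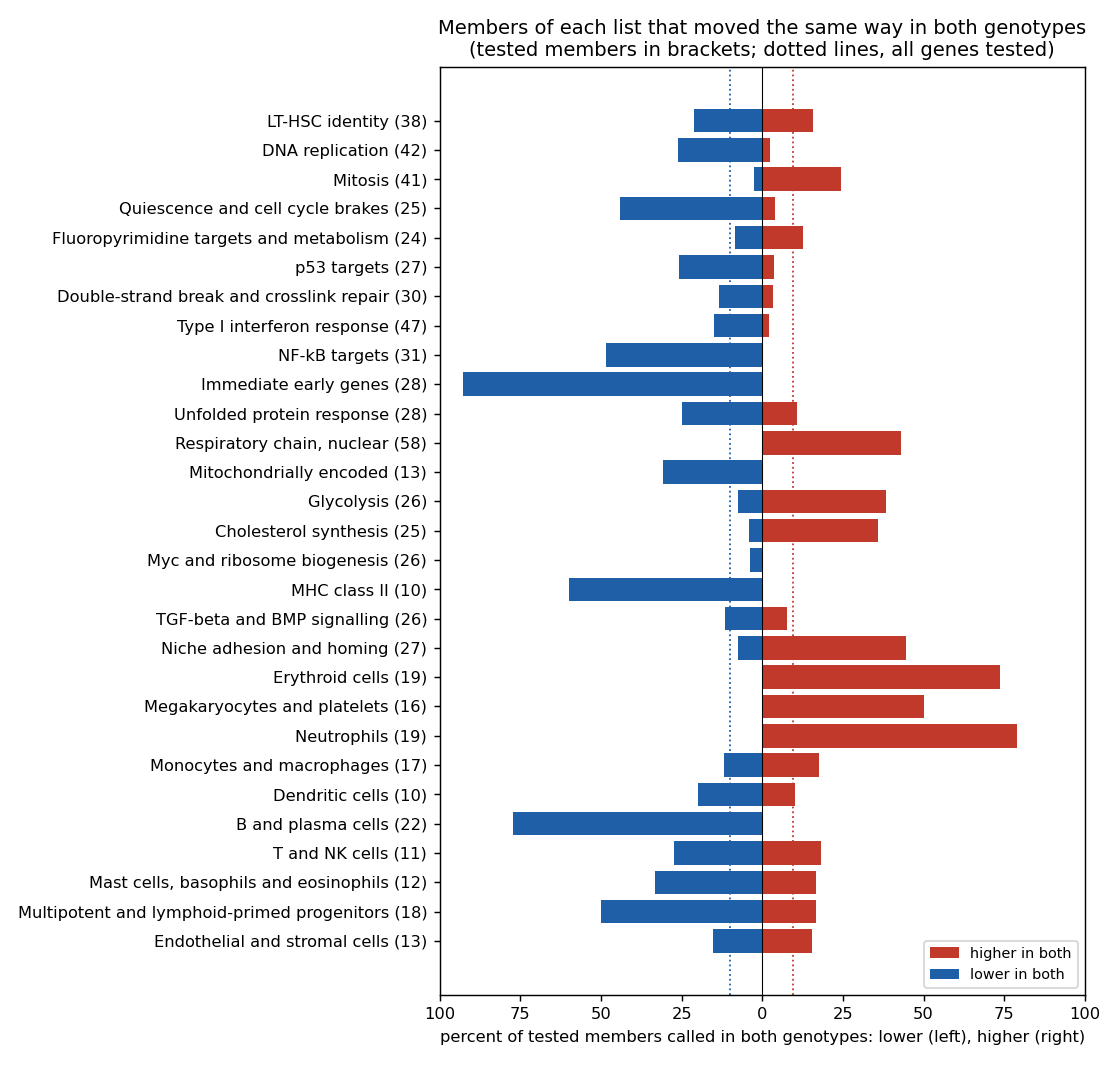
Percent of the tested members of each of the 29 gene lists that were common responders, higher (to the right) or lower (to the left) after 5-FU in both genotypes, beside the percent over all 16319 genes tested. Immediate early genes (92.9% lower), neutrophil genes (78.9% higher), B and plasma cell genes (77.3% lower) and erythroid genes (73.7% higher) have the longest bars.

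The 6 genes that follow had opposite signs and so lay outside the shared response. They were the 3 in each direction with the largest smaller within-genotype change, at a mean of at least 10 CPM. Unnamed models and immunoglobulin segments were left out. Acod1, which makes the antimicrobial metabolite itaconate, stood at 29.8, 28.5 and 27.4 CPM in wild type and 8.14, 6.68 and 7.18 CPM in libraries labelled Trim47-/- without the drug. After 5-FU Acod1 had 2.97, 2.47 and 2.09 CPM in wild type and 20.9, 17.9 and 18.8 CPM in libraries labelled Trim47-/-. It was lower after 5-FU in wild type and higher in Trim47-/-, with log2 -3.51 (adjusted p = 8.97e-10) in wild type and 1.39 (adjusted p = 4.54e-07) in Trim47-/-. B4galt5, a galactosyltransferase, had the same pattern, with log2 -1.60 (adjusted p = 3.12e-10) in wild type and 1.46 (adjusted p = 4.13e-10) in Trim47-/-, and so did the interferon-induced gene Ifi27l2a, with log2 -1.41 (adjusted p = 8.42e-06) in wild type and 1.45 (adjusted p = 3.25e-06) in Trim47-/-. Gprc5b, Zc3h6 and Mamdc2 were higher in wild type and lower in Trim47-/-, at log2 changes of 1.05 and -1.45, 1.22 and -1.33 and 1.09 and -1.00. Acod1 and Gprc5b still passed in the averaged effect, at log2 -1.06 (SE 0.0804, adjusted p = 5.19e-07) and -0.20 (SE 0.0603, adjusted p = 0.0149), while treated and untreated libraries overlapped for all 6. Trim47 itself had opposite signs, with log2 0.54 (adjusted p = 0.00209) in wild type and -0.80 (adjusted p = 1.45e-04) in Trim47-/-. It overlaps its neighbour Trim65 on the same strand, so reads of the pair may have been split.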

How the data were processed

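The deposited table holds, for 12 libraries, whole-number counts per gene, not normalised, and FPKM, which per the file headers is scaled by gene length and library size. HISAT2, StringTie, edgeR, CASAVA 1.8 and the build GRCm38 are named in the submitters' processing notes. Which tool counted, with which annotation and strand setting, is not given there, so reads of overlapping or near-identical genes may have been split. Per the labels' protocols, poly-A RNA went into stranded paired-end libraries. Groups came from the sample titles. For 28999 genes the counts went into edgeR 4.0.16 (R 4.3.3): TMM scaling, the default low-count filter (16319 genes kept), 1 mean per group, quasi-likelihood tests and Benjamini-Hochberg adjustment over all genes tested. FPKM served only to compare levels between genes. The common response is a count of genes called in 3 contrasts and has no test of its own, and the within-genotype contrasts share no libraries. The comparison, the 19 pathway lists and the 10 marker lists were chosen with earlier results of these data known, so no list count is independent support. Where a symbol had more than 1 identifier, that with most counts was used. Named genes were 14 chosen by name, the 12 rising and 12 falling common responders with the largest smaller within-genotype change (mean of at least 10 CPM, treatments not overlapping, no unnamed models or immunoglobulin segments), up to 3 per list and direction (at least 1 CPM; failing that, the 2 smallest p), and 6 with opposite signs. Others in the text are list members given by their values. Promoters are RefSeq's, GRCm38.p6. Dpyd, Cyr61 and Ahsp matched no symbol. A few genes that enter the counts are not reported here by name. The procedure was tested on simulated counts. Alternatives were DESeq2 1.42.0 scaling and test, no filter, a replicate block, an additive model, separate fits per genotype, stricter thresholds and each library left out.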

Additional observations from a re-analysis of the deposited data

Results flagged for a closer look

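The 5-FU response differed in size between the genotypes by at least 2-fold, with the interaction passing an adjusted p under 0.05 in edgeR's quasi-likelihood test, for 31 of the genes named by the rule and reported here. The values are log2 changes in Trim47-/- minus those in wild type. Among genes that rose in both genotypes, the rise was smaller in Trim47-/- for Slamf1 (-2.12), Klrb1c (-1.54), Col1a2 (-1.30), Lipg (-1.12) and Hbb-bt (-1.03), and larger for Ms4a6c (1.66). Among genes that fell in both genotypes, the fall was larger in Trim47-/- for the B-lineage and lymphoid genes Rag1 (-2.82), Pax5 (-2.15), Ccr9 (-1.801) and Il7r (-1.32), for Egr1 (-1.28), Dusp2 (-1.19), Btg2 (-1.14), Nr4a1 (-1.08) and Cd69 (-1.02) of the immediate early and activation genes, and for Sult1a1 (-2.91), Gdf15 (-2.14), Robo4 (-1.44), Shisa8 (-1.30), Ldhb (-1.22) and Iigp1 (-1.20). It was smaller in Trim47-/- for Cd83 (3.14) and Ddit3 (1.11). Genes called in opposite directions were Acod1 (4.90), B4galt5 (3.06) and Ifi27l2a (2.86), lower after 5-FU in wild type and higher in Trim47-/-, and Zc3h6 (-2.55), Gprc5b (-2.49), Mamdc2 (-2.09), Cdkn1c (-1.51) and Trim47 (-1.34), the reverse. Treated Trim47-/- Rag1 and Pax5 stood at means of 0.145 and 0.0725 CPM, so their differences rest on few counts.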

How the results depend on the processing

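Every count of called genes over all genes tested stayed within 1.5 times its main value with DESeq2's scaling or test, without the low-count filter, at an adjusted p under 0.01 and with separate fits per genotype. Leaving out each library in turn gave, for higher and lower genes, 4294 to 4340 and 4594 to 4663 in the averaged effect, 3672 to 4149 and 3850 to 4232 in wild type, 4468 to 4865 and 4693 to 5067 in Trim47-/-, 4128 to 4224 and 4408 to 4512 in the interaction, 1418 to 1485 and 1526 to 1620 in the common response, and 2331 to 2451 opposite responses. An additive model of genotype and treatment, which leaves the interaction in the residual spread, called 2872 higher and 2985 lower genes in the averaged effect, where Mki67, Acod1 and Gprc5b no longer passed. At 2-fold or more, the counts were 315 and 1009 in the averaged effect, 467 and 1152 in wild type, 657 and 1526 in Trim47-/-, 1192 and 1582 in the interaction, 129 and 401 in the common response, and 148 opposite responses. Of the 58 counts over lists, 36 moved by over 1.5 times at 2-fold or more. At an adjusted p under 0.01 the rising respiratory chain and glycolysis genes went from 25 to 14 and from 10 to 6, the falling interferon, mast cell list and fluoropyrimidine genes from 7 to 4, 4 to 2 and 2 to 0, and the rising mast cell list and endothelial genes from 2 to 1. Elsewhere the moved counts were of 4 genes or fewer: the rising mast cell list genes from 2 to 1 with DESeq2's test, without the filter and with separate fits, its falling genes from 4 to 2 without the filter, the rising endothelial genes from 2 to 1 with DESeq2's test and without the filter, the falling fluoropyrimidine genes from 2 to 1 with DESeq2's test, the falling monocyte genes from 2 to 1 with separate fits and the rising interferon genes from 1 to 2 with the block. Leaving out a library moved the rising mast cell list genes from 2 to 1 (untreated wild type 1 and 3, untreated Trim47-/- 1 and 2, treated wild type 3, treated Trim47-/- 2 and 3), the rising endothelial genes from 2 to 1 (untreated wild type 3, untreated Trim47-/- 1 and 3, treated Trim47-/- 1 and 2) and the falling fluoropyrimidine genes from 2 to 1 (untreated Trim47-/- 1 and 2, treated wild type 2, treated Trim47-/- 1, 2 and 3). It moved the falling dendritic cell genes from 2 to 4 (treated Trim47-/- 1) and, from 1 to 2, the rising DNA replication (untreated wild type 2), quiescence (treated wild type 2) and interferon genes (untreated Trim47-/- 2, treated Trim47-/- 3). Across the alternatives at the 0.05 threshold, 2706 to 3156 of the 3228 common responders were among those called. With the replicate number as a block, 4424 and 4693 genes were called in the averaged effect, 1539 and 1615 in the common response and 2499 as opposite. Deviations of same-numbered libraries correlated at -0.13 to 0.082 and those of other pairs at -0.099 to 0.101, which gave no sign of pairing by number. Deviations within groups of 3 libraries that may be technical repeats cannot exclude such a pairing. Of genes named by the rule, 5 whose averaged change had not passed changed sign: Cd34 without the filter (-0.0021) and, with 1 library left out, Cd34 (-0.0015 to 0.023), Ifi27l2a (-0.026 to 0.085), Mamdc2 (-0.0044 to 0.10), Tyms (-0.039 to 0.012) and Zc3h6 (-0.13 to 0.00093), the cause being not tested. All genes named by the rule and called in the averaged effect kept their direction. Depth limits the low genes, such as Rag1, Pax5, Ccr9 and Sult1a1.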

Other observations

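Common responders were also found in gene families outside the lists or spread over several of them. All were chosen after their values were seen, and none is a test. Over all genes tested, 9.64% rose in both genotypes, 10.1% fell and 15.7% had opposite signs, which holds beside every family count below. Of 8 S100a genes tested, which encode small calcium-binding proteins, 7 rose in both genotypes and none fell, with a median log2 change of 0.79. S100a8 and S100a9, the subunits of calprotectin, are in the neutrophil list, but S100a6 (1.62 (SE 0.0616, adjusted p = 1.43e-09)) and S100a4 (1.39 (SE 0.0715, adjusted p = 1.81e-08)) are not. S100a10 passed in the averaged effect with unlike signs in wild type and Trim47-/- (-0.14 and 0.55). The metallothioneins Mt1 and Mt2, which bind zinc and copper, stood at 18.9 ± 1.91 CPM in wild type without 5-FU, 14.6 ± 0.942 CPM in libraries labelled Trim47-/- without it, 34.8 ± 2.19 CPM in wild type after 5-FU, and 57 ± 0.947 CPM in libraries labelled Trim47-/- after 5-FU for Mt1 (SD, n = 3 each), with log2 changes of 1.42 (SE 0.0541, adjusted p = 1.41e-09) for Mt1 and 2.06 (SE 0.0886, adjusted p = 4.05e-09) for Mt2. Csf2rb, the beta subunit shared by the receptors for IL-3, GM-CSF and IL-5, and Csf2rb2, the mouse beta subunit of the IL-3 receptor alone, rose at log2 1.14 (SE 0.113, adjusted p = 4.83e-06) and 1.53 (SE 0.0391, adjusted p = 4.46e-11), and the copies are near-identical, so reads may have been split. Hmga2, a chromatin protein of fetal stem cells, went from 13.5–17.3 to 25.6–45.6 CPM at log2 1.20 (SE 0.0413, adjusted p = 6.09e-10), or 1.66 in wild type and 0.73 in Trim47-/-.

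Of 16 genes of the Notch pathway, which directs lymphoid fate, 6 fell in both genotypes, 1 rose and 2 had opposite signs, and the family did not move as a whole: its median log2 change was -0.07, with 5 genes higher and 6 lower in the averaged effect. The receptors Notch1 (-0.77 (SE 0.0153, adjusted p = 4.51e-12)) and Notch2 (-0.44 (SE 0.0154, adjusted p = 6.98e-10)), the ligands Jag2 (-1.22 (SE 0.0160, adjusted p = 8.68e-14)) and Dll4 (-0.89 (SE 0.0875, adjusted p = 4.46e-06)) and the target genes Hes1 (-2.01 (SE 0.0636, adjusted p = 2.92e-10)) and Hey1 (-1.78 (SE 0.0480, adjusted p = 6.57e-11)) fell. The ligand Jag1 rose, from 3.68–5.53 to 12.8–15.5 CPM at log2 1.53 (SE 0.0702, adjusted p = 6.74e-09), so the 2 Jagged ligands moved in opposite directions in both genotypes. Hes1 changed by -1.36 and -2.66 in wild type and Trim47-/-, and Jag2 by -1.24 and -1.21. Of 14 MHC class I genes 9 fell in both genotypes and none rose, among them H2-K1 (-0.40 (SE 0.0143, adjusted p = 7.30e-10)) and the Q-region genes H2-Q4, H2-Q5, H2-Q6, H2-Q7 and H2-Q10, while H2-D1 was not called in both (-0.29 and 0.013) and H2-T23 was higher in the averaged effect (0.19 (SE 0.0167, adjusted p = 1.45e-06)). These genes resemble each other closely, so reads may have been divided between them. Of 167 immunoglobulin V segments tested, 116 fell in both genotypes, 4 rose and 12 had opposite signs, with a median log2 change of -2.33. Secreted ligands were among the falls: Lif (from 168–320.3 to 47.5–59 CPM, log2 -2.12 (SE 0.0195, adjusted p = 3.99e-15)), which supports stem cells in several tissues, the EGF-family ligand Areg (from 6.21–14.4 to 0.939–2.47 CPM, log2 -2.53 (SE 0.0978, adjusted p = 1.63e-09)) and Tnfsf11, which encodes RANKL (from 10.6–18.4 to 3.69–4.36 CPM, log2 -1.803 (SE 0.0569, adjusted p = 2.84e-10)). The interferon-gamma-induced GTPase genes fell, Gbp4 (-2.18 (SE 0.0795, adjusted p = 9.58e-10)), Gbp6 (-2.08 (SE 0.144, adjusted p = 2.35e-07)) and Gbp9 (-1.75 (SE 0.0969, adjusted p = 3.41e-08)), and the listed relatives Gbp2, Gbp3 and Gbp7 had opposite signs. Pde4b, a cyclic-AMP phosphodiesterase, fell from 956–1128 to 414–463 CPM at log2 -1.27 (SE 0.0287, adjusted p = 1.44e-11), or -1.29 in wild type and -1.26 in Trim47-/-.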
